A study of Homo sapiens with 12 samples.

Results

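The 9 genes described here are NFE2L2, which encodes the transcription factor NRF2, its inhibitor KEAP1, the glutathione S-transferase gene GSTP1 and 6 further genes of the antioxidant response, NQO1, GCLC, GCLM, SRXN1, TXNRD1 and HMOX1. They were chosen by gene symbol from the 58302 genes of the deposited expression table, and each symbol was found there. The table holds 12 libraries, 4 from each of 3 prostate cell lines. BPH-1 is a benign prostate cell line, and DU145 and PC3 are prostate cancer (PCa) lines that grow without androgen. All lines were grown in the same medium (DMEM) with 10% fetal bovine serum and antibiotics, none was treated, and each carries the genotype label WT. Each line stands for 1 established culture and not for several donors. Nothing in the labels says that the 4 libraries of a line came from separate cultures, so the p-values measure only the spread between these libraries, which may be technical.

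NRF2 is a basic leucine zipper factor that, paired with a small MAF protein, binds antioxidant response elements in DNA and turns on genes for detoxification, glutathione synthesis and thiol repair. In unstressed cells KEAP1 holds NRF2 and, as the adaptor of a CUL3 ubiquitin ligase, marks it for degradation, and electrophiles that modify cysteines of KEAP1 release NRF2. NRF2 is thus set largely at the level of the protein, which was not measured here. In the prostate, GSTP1 is known for the DNA methylation that silences its promoter in many tumours, while the enzyme is made by basal cells of the benign gland.

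The letters at the promoters are shown because a gene's own start is the place where an antioxidant response element could lie closest to it. RefSeq windows from 250 bases before to 50 bases after a transcript start (build GRCh38.p14) were read for 8 of the 9 genes, 11 windows in all, and HMOX1 had no entry. The core letters TGACNNNGC, searched on both strands, were in 13.3% of all 35116 windows of this length, and the AP-1 letters TGACTCA in 4.95%. The windows of GSTP1, GCLM, 1 of the 2 starts of KEAP1 and both starts of TXNRD1 held the core, and those of NFE2L2, NQO1, GCLC and SRXN1 did not, which says only that these letters are not in those windows. The lines below run 5′ to 3′ in the direction of the gene, with the core in capitals. Where the core lies on the other strand the capitals show its reverse complement.
GSTP1, 66 bases before the start, chr11:67583736-67583764, plus strand: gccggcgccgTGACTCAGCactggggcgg
GCLM, 34 bases before the start, chr1:93909446-93909474, minus strand: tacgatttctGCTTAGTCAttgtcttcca
KEAP1, 31 bases before the start, chr19:10502784-10502812, minus strand: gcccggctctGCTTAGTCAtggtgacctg
KEAP1, 54 bases before the start, chr19:10502807-10502835, minus strand: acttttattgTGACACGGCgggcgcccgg
TXNRD1, 102 bases before the start, chr12:104286920-104286948, plus strand: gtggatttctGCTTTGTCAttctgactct
TXNRD1, 99 bases before another start, chr12:104215670-104215698, plus strand: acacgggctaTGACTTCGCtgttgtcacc
The last TXNRD1 window held a second core, GCTCCGTCA in the direction of the gene, which begins 8 bases before that start and runs across it, and its surroundings are not shown. The match of GSTP1 overlaps the AP-1 letters and begins with them. GCLM and KEAP1 share the same 9 letters of the core, on the strand opposite to the gene. These matches describe the reference sequence and are not evidence of binding in the 3 lines.

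Expression was deposited as FPKM, the reads counted on a gene scaled to the gene's length and to the library's total, with the length taken as the sum of the distinct exons of the gene. Steps between low values gave depths of 12950664 to 16309561 reads per library, and the 9 genes were covered by between 52 reads (HMOX1) and 55223 reads (TXNRD1). All 9 genes therefore passed the filter on low values, of 10 reads per library in at least 4 libraries, in each comparison. Levels of different genes are per length on the deposited scale, where the length exceeds that of merged exons by a factor between 1 (SRXN1) and 2.70 (TXNRD1).

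Several libraries stood apart from others of their line. The summed FPKM of the leukocyte markers PTPRC, CD3E and LYZ was 8.76 to 11.6 in the 4 BPH-1 libraries, 9.11 and 9.88 in DU145 replicates 1 and 2, 0 in DU145 replicates 3 and 4 and at most 0.167 in PC3, with CD3E at 0 in all 12 libraries. In DU145, 17 protein-coding genes had an FPKM over 0.5 in replicates 1 and 2 and under 0.05 in replicates 3 and 4, among them the neutrophil genes MNDA and DEFA3, named after their values were seen, with 5 genes the other way round, while the other ways to pair the 4 libraries gave between 1 and 6 genes. The fibroblast markers COL1A1, COL1A2, PDGFRB and DCN summed to between 1.97 and 3.43 in BPH-1, 0.627 and 1.66 in DU145 and 3.01 and 3.88 in PC3, mostly as COL1A1, with DCN at 0.373 and 0.214 in DU145 replicates 3 and 4 and at 0 elsewhere. The basal keratins and TP63 summed to between 298 and 427 in BPH-1, at most 0.994 in DU145 and at most 0.0645 in PC3, KRT8 and KRT18 were present in every library, and KLK3 was at 0 in every library. The summed endothelial markers PECAM1, VWF and CDH5 reached 2.28 (PC3). In PC3 this was nearly all PECAM1, with VWF at most 0.0173 and CDH5 at most 0.0070. Base composition differed as well. Relative to the mean of all libraries, genes in the top quartile of GC content differed from those in the bottom quartile by -1.51 to -1.33 (log2) in BPH-1, by 1.45, -0.35, 2.22 and -0.02 in DU145 replicates 1 to 4 and by -0.01, 0.13, 0.71 and 1.55 in PC3 replicates 1 to 4. Each result on DU145 was therefore also computed without replicates 1 and 2 and without replicates 3 and 4, and each comparison with every library's GC trend divided out. The part of leukocyte RNA in the differences from BPH-1 was not tested, since all 4 BPH-1 libraries carry it and no PC3 library does.

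**Figure D1:**
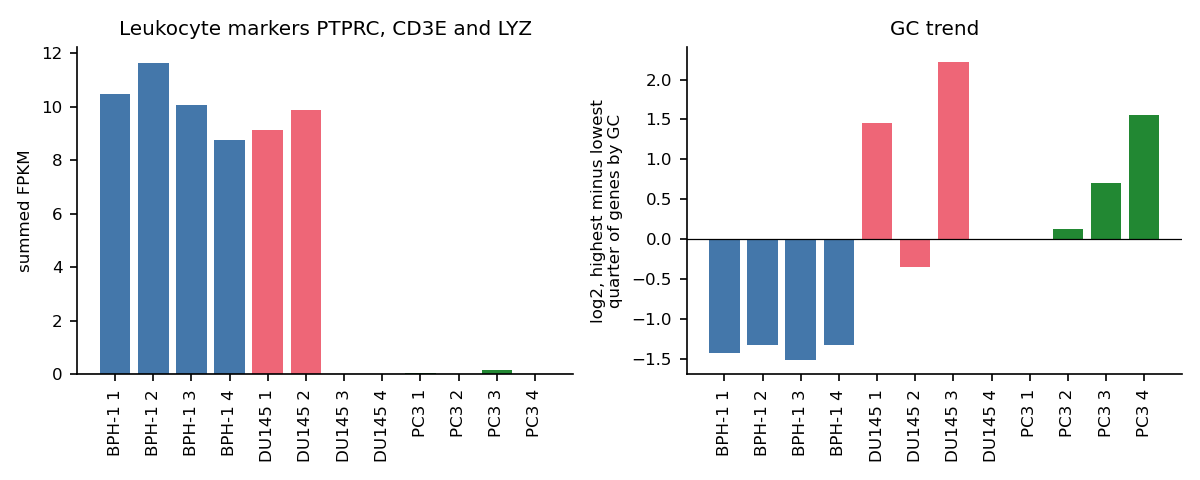
Left, summed FPKM of 3 leukocyte markers in each of the 12 libraries, where the BPH-1 libraries and DU145 replicates 1 and 2 lie between 8.76 and 11.6 and the others at or near 0. Right, the GC trend of each library, given as the median log2 deviation of genes in the top quartile of GC content minus that of the bottom quartile, which is below -1 in all BPH-1 libraries and reaches 2.22 in DU145 replicate 3.

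Lines were compared by limma on log2(FPKM + 1), with a Benjamini-Hochberg adjusted p under 0.05 over all genes tested as the threshold, and log2 fold changes below are on that scale, which understates changes of weakly expressed genes. In PC3 against BPH-1, 6 of the 9 genes passed, where 67.6% of the 16345 genes tested did. KEAP1 and TXNRD1 were higher in PC3 (2 genes, with 27.2% of all genes higher), and NFE2L2, GSTP1, GCLC and GCLM were lower (4 genes, with 40.5% of all genes lower). In DU145 against BPH-1, 5 of the 9 passed, against 62.6% of 17070 genes. NQO1, SRXN1, TXNRD1 and HMOX1 were higher in DU145 (4 genes, with 30.3% of all genes higher) and GSTP1 was lower (1 gene, with 32.3% lower). In PC3 against DU145, 6 of the 9 passed, against 48.2% of 16210 genes, with KEAP1 higher in PC3 (20.0% of all genes higher) and NQO1, GCLC, GCLM, SRXN1 and HMOX1 lower (5 genes, with 28.3% lower). The median log2 fold change of the 9 genes was 0.06, 0.48 and -0.92 in these comparisons, and that of all genes tested was -0.13, -0.03 and -0.05. The shares of the 9 that passed against BPH-1 lie near those of all genes. Of all calls, 40.2% were higher in PC3 than in BPH-1 (55.3% under upper-quartile scaling, 30.3% with the same sum per library) and 48.4% were higher in DU145 than in BPH-1 (57.3% and 38.6%). The comparisons share libraries, so their values are set side by side and are not independent of each other.

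**Figure D2:**
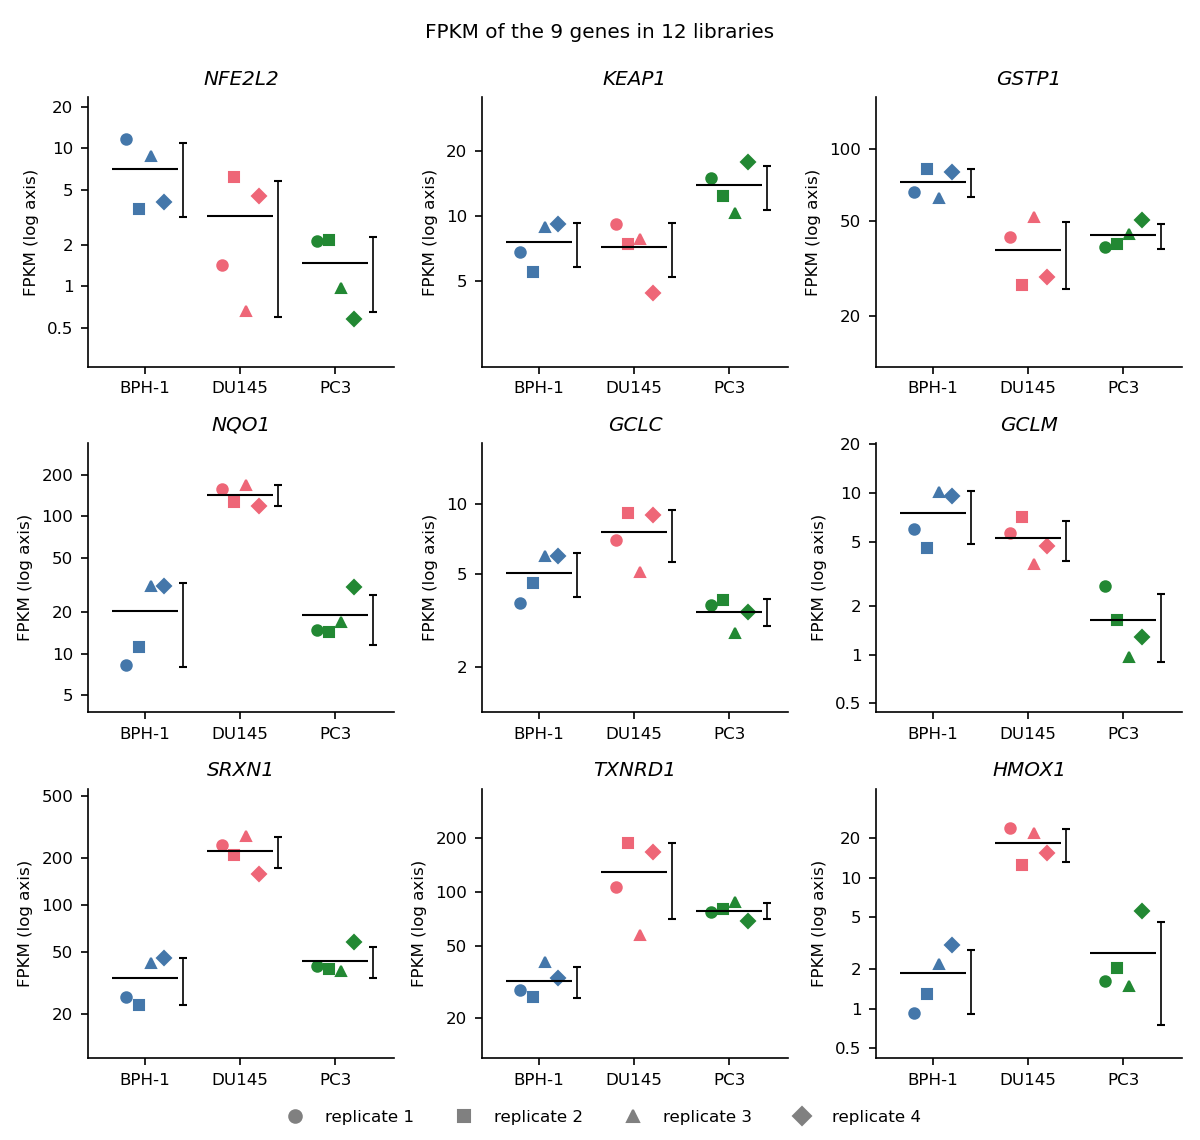
FPKM of each of the 9 genes (logarithmic axes) in the 4 libraries of BPH-1, DU145 and PC3, with symbols for the replicate numbers, a line at the mean and a bar of 1 SD to each side. The DU145 libraries lie above all others for NQO1, SRXN1 and HMOX1, the BPH-1 libraries above all others for GSTP1, and the PC3 libraries below all others for GCLM.

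NFE2L2 was lower in PC3 than in BPH-1, and its level in DU145 varied widely among the libraries. It had an FPKM of 11.7, 3.66, 8.78 and 4.08 in BPH-1 replicates 1 to 4, of 1.44, 6.25, 0.660 and 4.54 in DU145 and of 2.15, 2.19, 0.983 and 0.578 in PC3. Every PC3 library lay under every BPH-1 library, while the DU145 libraries spanned a range of 9.47 times, with replicates 1 and 3 low and replicates 2 and 4 among the BPH-1 values. The log2 fold change of PC3 against BPH-1 was -1.64 (standard error 0.36, limma adjusted p = 0.00284), and the exact permutation test gave the smallest two-sided p that 4 against 4 libraries allow, 0.0286. Neither DU145 against BPH-1 (-1.04, standard error 0.49, adjusted p = 0.0902) nor PC3 against DU145 (-0.59, standard error 0.47, adjusted p = 0.332) passed in limma. The order of the means was BPH-1 (7.05), DU145 (3.22) and PC3 (1.47), and DU145 did not differ beyond its spread from either neighbour. Without DU145 replicate 2, DU145 also lay under BPH-1 in limma (-1.38, adjusted p = 0.0295), as it did when the libraries were scaled to the same sum (-1.25, adjusted p = 0.0459). In bulk RNA, fewer cells with a transcript and less of it per cell cannot be told apart. NFE2L2 lies at chr2:177227595-177392697 on the minus strand (GRCh38). It shares 17.6% of its merged exon bases with AC019080.1 on the same strand, and reads of the pair could be split between them.

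KEAP1 was higher in PC3 than in either other line. It had an FPKM of 6.80, 5.47, 8.85 and 9.13 in BPH-1, of 9.21, 7.43, 7.77 and 4.41 in DU145 and of 15.03, 12.4, 10.3 and 17.7 in PC3. The lowest PC3 library lay above the highest library of BPH-1 and of DU145, and those 2 lines overlapped. The log2 fold change was 0.79 in PC3 against BPH-1 (standard error 0.20, limma adjusted p = 0.00533) and 0.87 in PC3 against DU145 (standard error 0.23, adjusted p = 0.0129), while DU145 against BPH-1 gave -0.07 (standard error 0.23, adjusted p = 0.795). KEAP1 has a GC content of 60.3%, above that of 86.9% of genes, and with the GC trend divided out PC3 against BPH-1 fell to 0.09 (adjusted p = 0.712), DU145 against BPH-1 became -0.85 (adjusted p = 0.0103) and PC3 against DU145 remained at 0.94 (adjusted p = 0.00609). With DU145 replicates 3 and 4 left out, PC3 against DU145 was 0.65 and no longer passed in limma (adjusted p = 0.0637). KEAP1 lies at chr19:10486120-10503741 on the minus strand.

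GSTP1, whose enzyme joins glutathione to electrophiles, was lower in both PCa lines than in BPH-1 and was abundant in all 3. It had an FPKM of 66.1, 82.4, 62.7 and 80.6 in BPH-1, of 42.9, 27.1, 52.2 and 29.1 in DU145 and of 39.1, 40.3, 44.3 and 50.8 in PC3. All 8 libraries of the PCa lines lay under the lowest BPH-1 library, the PC3 values fell within the range of DU145, and no library was near 0. The means were 72.9 ± 10.0 in BPH-1, 43.6 ± 5.27 in PC3 and 37.8 ± 11.9 in DU145 (SD, n = 4 each). GSTP1 was thus 1.67 times as high in BPH-1 as in PC3 (log2 fold change -0.73, standard error 0.13, limma adjusted p = 0.000794) and 1.93 times as high as in DU145 (-0.97, standard error 0.22, adjusted p = 0.00378). PC3 against DU145 gave 0.24 (standard error 0.22, limma adjusted p = 0.389). Within DU145, the libraries with the higher GC trend, replicates 1 and 3, had the higher GSTP1, and with the GC trend divided out the 4 DU145 values came to 28.4, 31.5, 27.4 and 29.7, the BPH-1 values to between 101 and 120, and the PC3 values to between 32.7 and 38.1. The log2 fold changes from BPH-1 were then -1.59 in PC3 and -1.87 in DU145 (limma adjusted p = 8.6e-07 in both), and PC3 lay above DU145 (0.28, adjusted p = 0.0327). Under upper-quartile scaling neither difference from BPH-1 passed in limma (-0.32 in PC3, adjusted p = 0.12, and -0.67 in DU145, adjusted p = 0.0568). GSTP1 lies at chr11:67583595-67586660 on the plus strand in the deposited table, where its length from the steps of the values, 4660 bases, differs from that of GENCODE 29, and 62.5% of its bases are G or C. DNA methylation was not measured here.

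NQO1, a quinone reductase widely used as a readout of NRF2, was higher in DU145 than in either other line. It had an FPKM of 158, 128, 170 and 119 in DU145, of 8.25, 11.2, 31.1 and 31.2 in BPH-1 and of 14.8, 14.4, 16.9 and 30.5 in PC3. The lowest DU145 library lay far above the highest library of the other lines, and the BPH-1 libraries fell into a low pair and a high pair with PC3 between or within them. The mean in DU145 was 7.04 times that of BPH-1 (log2 fold change 2.95, standard error 0.40, limma adjusted p = 0.000133) and 7.51 times that of PC3 (PC3 against DU145 -2.90, standard error 0.24, adjusted p = 1.53e-05). Both passed the exact permutation test at its smallest p, 0.0286. PC3 against BPH-1 gave 0.06 (standard error 0.43, adjusted p = 0.913 in limma), and its sign turned without PC3 replicate 4 (-0.18), without BPH-1 replicate 1 (-0.28) and without BPH-1 replicate 2 (-0.14). NQO1 lies at chr16:69706996-69726951 on the minus strand, and its antisense neighbour AC092115.2 had at most 3 reads in a library.

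HMOX1, the inducible haem oxygenase that breaks haem down to biliverdin, iron and carbon monoxide, was also highest in DU145, at a lower level. It had an FPKM of 23.7, 12.6, 21.9 and 15.5 in DU145, of 0.924, 1.29, 2.19 and 3.07 in BPH-1 and of 1.63, 2.04, 1.501 and 5.56 in PC3. The DU145 libraries again lay above all others, and PC3 replicate 4 stood apart from the other PC3 libraries. HMOX1 was 9.85 times as high in DU145 as in BPH-1 (log2 fold change 2.78, standard error 0.28, limma adjusted p = 2.10e-05) and 6.87 times as high as in PC3 (PC3 against DU145 -2.48, standard error 0.33, adjusted p = 0.000261). PC3 against BPH-1 gave 0.30 (standard error 0.34, adjusted p = 0.451 in limma), and -0.02 without PC3 replicate 4. HMOX1 is at 58.1% GC, and with the GC trend divided out DU145 against BPH-1 was 2.13 (limma adjusted p = 7.78e-05). HMOX1 lies at chr22:35380361-35394214 on the plus strand.

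GCLC and GCLM encode the catalytic and the modifier subunit of glutamate-cysteine ligase, the enzyme that sets the rate of glutathione synthesis. Both had their lowest mean in PC3, while GCLC had its highest mean in DU145 and GCLM in BPH-1. GCLC had an FPKM of 3.76, 4.57, 5.99 and 5.97 in BPH-1, of 7.003, 9.13, 5.10 and 9.02 in DU145 and of 3.69, 3.87, 2.80 and 3.43 in PC3. GCLM had an FPKM of 5.96, 4.57, 10.2 and 9.59 in BPH-1, of 5.65, 7.08, 3.62 and 4.67 in DU145 and of 2.67, 1.63, 0.968 and 1.29 in PC3. Every PC3 library was under every DU145 library for both genes and under every BPH-1 library for GCLM, whereas for GCLC the highest PC3 library lay above BPH-1 replicate 1. GCLM was 4.62 times as high in BPH-1 as in PC3 (log2 fold change -1.68, standard error 0.26, limma adjusted p = 0.000368) and 3.21 times as high in DU145 as in PC3 (-1.26, standard error 0.24, adjusted p = 0.00227). GCLC was 2.19 times as high in DU145 as in PC3 (-0.92, standard error 0.19, limma adjusted p = 0.00364). Its smaller difference of PC3 from BPH-1 (-0.44, standard error 0.16, limma adjusted p = 0.0315) did not pass in 8 of the alternatives, among them those without PC3 replicate 3, without BPH-1 replicate 3 and without BPH-1 replicate 4 (adjusted p = 0.088, 0.0872 and 0.0895), and the exact permutation test gave p = 0.0571.

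DU145 against BPH-1 did not pass in limma for either subunit, with 0.48 for GCLC (standard error 0.21, adjusted p = 0.0723) and -0.43 for GCLM (standard error 0.27, adjusted p = 0.185). Without DU145 replicate 3 the GCLC difference passed (0.64, limma adjusted p = 0.0169). GCLM is the most AT-rich of the 9 genes (37.3% GC, above 5.31% of genes), and its values moved most with the GC trend. Divided out, PC3 against BPH-1 fell to -0.54 (limma adjusted p = 0.0455), and DU145 against BPH-1 turned to 1.01 (adjusted p = 0.00634), with GCLC then at 0.74 (adjusted p = 0.00219). The ratio of GCLC to GCLM in FPKM was 0.631, 0.999, 0.589 and 0.623 in BPH-1, 1.24, 1.29, 1.41 and 1.93 in DU145 and 1.39, 2.37, 2.90 and 2.66 in PC3. Each library of the PCa lines lay above each BPH-1 library in this ratio on the deposited scale. The ratio was formed after the values were seen and was not tested, and the 2 genes differ in GC content. With the GC trend divided out the separation was lost for both PCa lines. In PC3 replicates 1 and 4, GCLC was lower and GCLM higher than in BPH-1 replicate 2, so their ratio lay under that of this BPH-1 library. GCLC was then under GCLM in DU145 replicates 1 (8.82 against 11.2) and 3 (7.31 against 9.67), and over GCLM in every BPH-1 library. GCLC lies at chr6:53497341-53616970 and GCLM at chr1:93885205-93909456, both on the minus strand.

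SRXN1 encodes sulfiredoxin, which restores overoxidised peroxiredoxins, and TXNRD1 encodes the cytosolic thioredoxin reductase, which uses NADPH to keep thioredoxin reduced. SRXN1, like NQO1 and HMOX1, had its highest level in DU145, while TXNRD1 was higher in both PCa lines than in BPH-1. SRXN1 had an FPKM of 246, 212, 279 and 159 in DU145, of 25.9, 23.0, 42.5 and 45.7 in BPH-1 and of 40.6, 39.1, 37.7 and 58.4 in PC3. The DU145 libraries lay above all others, with a mean 6.53 times that of BPH-1 (log2 fold change 2.70, standard error 0.26, limma adjusted p = 1.68e-05) and 5.09 times that of PC3 (PC3 against DU145 -2.31, standard error 0.21, adjusted p = 2.42e-05). PC3 against BPH-1 gave 0.39 (standard error 0.24, adjusted p = 0.177 in limma), and passed only under upper-quartile scaling (0.79, adjusted p = 0.0225). With the GC trend divided out, DU145 against BPH-1 was 2.0 (limma adjusted p = 8.21e-05). SRXN1 lies at chr20:646615-653370 on the minus strand and shares 85.0% of its exon bases with AL121758.1 on the same strand, a gene that had at most 5 reads in a library, so the split between the pair is uncertain.

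TXNRD1 had an FPKM of 28.5, 26.2, 40.6 and 33.1 in BPH-1, of 106, 187, 57.3 and 166 in DU145 and of 77.6, 80.5, 87.6 and 68.5 in PC3. Every library of the PCa lines lay above every BPH-1 library, and the 4 PC3 values lay inside the wide range of DU145, where replicate 3 was the lowest. PC3 was 2.45 times as high as BPH-1 (log2 fold change 1.28, standard error 0.15, limma adjusted p = 4.68e-05), and DU145 was 4.02 times as high (1.86, standard error 0.34, adjusted p = 0.000942). PC3 against DU145 gave -0.58 (standard error 0.33, adjusted p = 0.185 in limma), and it passed without DU145 replicate 3 (-0.92, adjusted p = 0.00597), with DU145 replicates 3 and 4 left out (-0.84, adjusted p = 0.0298) and with the GC trend divided out (-0.67, adjusted p = 0.0278). TXNRD1 lies at chr12:104215779-104350305 on the plus strand, with overlapping transcripts from several starts, and the deposited table does not separate them.

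**Figure D3:**
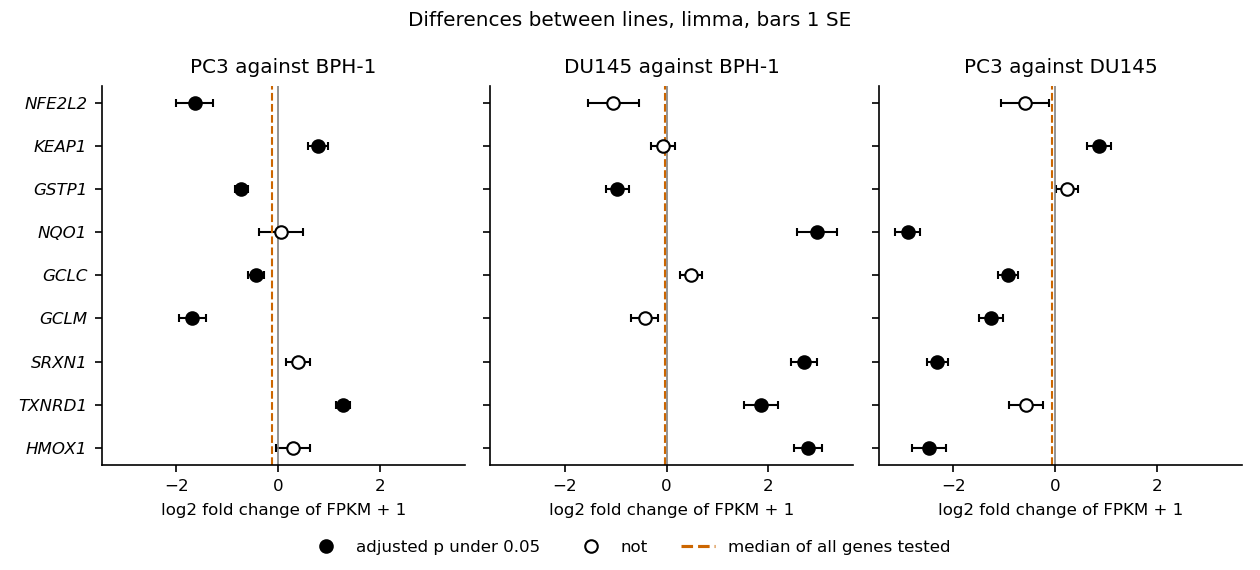
Log2 fold change (of FPKM + 1) of each gene in the 3 comparisons, with bars of 1 standard error, filled points for adjusted p under 0.05 in limma and a dashed line at the median of all genes tested. NQO1, SRXN1 and HMOX1 lie beyond 2 in DU145 against BPH-1 and below -2 in PC3 against DU145, and within 0.5 of 0 in PC3 against BPH-1.

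Within a line, the libraries kept an order that several members shared. In BPH-1, replicates 3 and 4 had the highest values of NQO1, HMOX1, SRXN1, TXNRD1, GCLC, GCLM and KEAP1, while NFE2L2 was highest in replicates 1 and 3 and GSTP1 in replicates 2 and 4. In DU145, replicates 1 and 3, those with the higher GC trend, had the lower values of NFE2L2, TXNRD1 and GCLC and the higher values of GSTP1, KEAP1, NQO1, SRXN1 and HMOX1. In PC3, replicate 4 was the highest for NQO1, SRXN1, HMOX1, KEAP1 and GSTP1 and the lowest for NFE2L2 and TXNRD1. With DU145 replicates 1 and 2 left out, 5 of the 9 genes passed against BPH-1, where 54.8% of all genes tested did, and 6 in PC3 against DU145, where 37.8% did. With replicates 3 and 4 left out the counts were also 5 and 6, against 53.0% and 41.0% of all genes. NQO1, SRXN1 and HMOX1 were 2.95, 2.65 and 2.82 (log2) above BPH-1 in DU145 replicates 3 and 4, where the leukocyte markers are at 0, and 2.95, 2.76 and 2.73 in replicates 1 and 2.

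**Figure D4:**
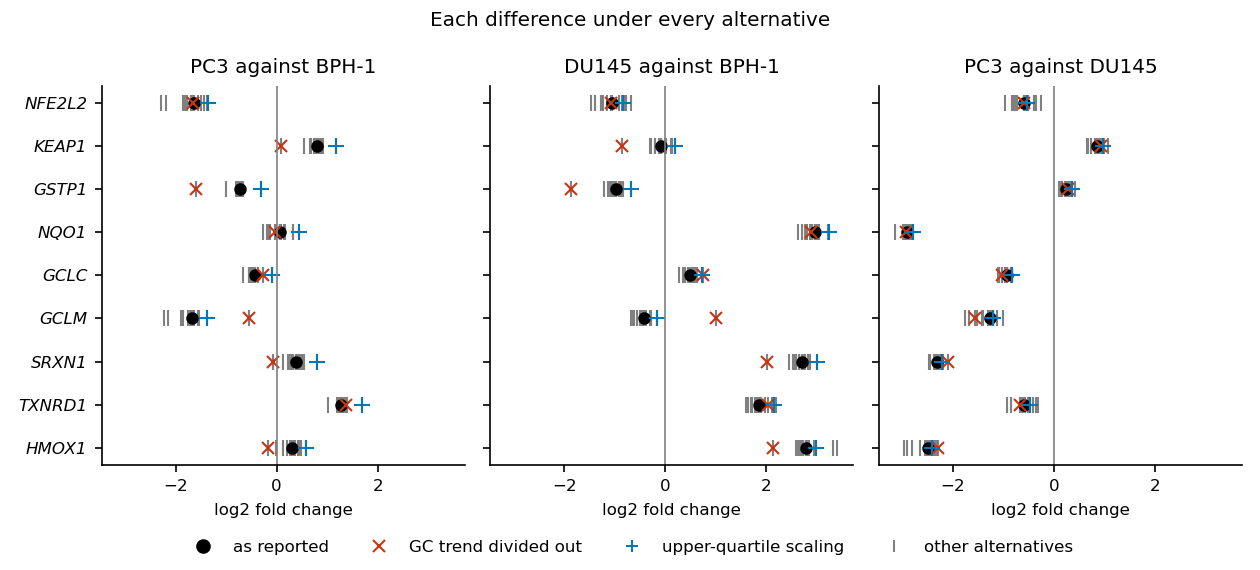
Log2 fold change of each gene in each comparison as reported (black), with the GC trend divided out (red crosses), under upper-quartile scaling (blue) and under the other alternatives (grey ticks). The values of NQO1, SRXN1 and HMOX1 in DU145 stay above 2 in DU145 against BPH-1, while the GC-rich KEAP1 and GSTP1 and the AT-rich GCLM shift most with the GC trend in both comparisons with BPH-1.

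The genes with the nearest profiles were sought over the 12 libraries among 10496 protein-coding genes with a mean FPKM of at least 1, by the smallest value of the largest difference between profiles of log2(FPKM + 1), each centred on its mean. SRXN1 and HMOX1 were nearest to each other, with a largest difference of 0.45 where their own values spanned 3.55 and 3.68. The next after them were VEGFA for SRXN1 (0.46) and OSGIN1, a gene of the quinone and xenobiotic list, for HMOX1 (0.53). HIST2H2AA4 (0.51) and HMOX1 (0.60) were nearest to NQO1, which spanned 4.21, and HIST2H2AA4 has near-identical copies among which reads could be split. The nearest to GSTP1 were HMCES (0.24) and EPHB2 (0.27), with mean FPKM in BPH-1, DU145 and PC3 of 14.4, 8.13 and 8.73 for HMCES. The nearest to KEAP1 were LRWD1 (0.33) and RANBP3 (0.34), to NFE2L2 VPS36 (0.54) and PITPNB (0.60), to GCLC GOLPH3 (0.28) and TULP3 (0.30), to GCLM FAM122A (0.44) and DBR1 (0.44), and to TXNRD1 L3MBTL4 (0.37) and TTC28 (0.57). These likenesses rest on 3 lines and on whatever the libraries share, such as GC trend, and are descriptions.

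Beyond the 9 genes, 8 lists of 83 genes of the pathway were examined, of which 82 were in the table and 77 to 79 passed the filter, of which 7 (PC3 and BPH-1), 5 (DU145 and BPH-1) and 8 (PC3 and DU145) reached the read minimum in all 4 libraries of only 1 of the lines compared. Such a gene entered the test through the line in which it is high, and 6, 5 and 8 of them are among the calls counted next. The values of those named below are given as a description. In PC3 against BPH-1, 30 of 79 list genes were higher, 24 lower and 25 did not pass in limma, where 27.2% of all genes tested were higher and 40.5% lower, with a median log2 fold change of 0.09 in the lists and -0.13 over all genes. In DU145 against BPH-1, 38 of 78 were higher, 17 lower and 23 did not pass, where 30.3% of all genes were higher and 32.3% lower, with medians of 0.56 and -0.03. In PC3 against DU145, 14 of 77 were higher, 32 lower and 31 did not pass, where 20.0% of all genes were higher and 28.3% lower, with medians of -0.31 and -0.05. The counts and medians of the single lists below stand against these same shares and medians of all genes. The 3 largest changes of each list among those that passed came to 71 differences in all, with adjusted p between 9.53e-08 and 0.0298 over the comparisons, and the genes named below are from these, so their size follows from how they were chosen.

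Among 12 partners and regulators of NRF2, 4 were higher and 4 lower in DU145 against BPH-1. MAFK and MAFG, small MAF proteins that pair with NRF2 on DNA, had mean FPKM of 86.4 and 42.0 in DU145 against 7.41 and 6.76 in BPH-1 and 9.25 and 9.82 in PC3. The log2 fold changes of DU145 against BPH-1 were 3.54 and 2.37 (limma adjusted p = 3.6e-05 and 7.82e-05). BACH1, a repressor that competes with NRF2 for the same elements, was lower in both PCa lines, with means of 6.03 in BPH-1, 0.924 in DU145 and 0.795 in PC3 (log2 fold change -1.94 and -2.01). In PC3 against BPH-1, 1 gene of the list was higher and 5 lower. The lower ones include PALB2, a DNA repair protein that can bind KEAP1 (-2.23), which was also lower in DU145 than in BPH-1 (-1.90). The higher one was PGAM5, a mitochondrial phosphatase that binds KEAP1 (1.19). In PC3 against DU145, 2 were higher and 4 lower, and TRIM16 was at 1.25 in PC3 against 8.84 in DU145 (-2.11). The list medians were 0.13 in PC3 and 0.46 in DU145 against BPH-1 and -0.28 in PC3 against DU145.

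Of 8 genes of glutathione synthesis, recycling and cystine import, 5 were higher and 2 lower in DU145 against BPH-1, 2 were higher and 3 lower in PC3 against BPH-1, and of 7 tested in PC3 against DU145, 5 were lower and 0 higher. The list medians were 0.96, -0.17 and -1.58 in that order. GPX2, 1 of the 2 genes that were lower in DU145 than in BPH-1, reached the read minimum in all 4 libraries of BPH-1 only. The 5 genes that were higher in DU145 include GSR, which reduces glutathione disulfide, at 121 in DU145 against 34.8 in BPH-1 (1.78), GSS, which completes glutathione synthesis (1.46), and CHAC1, which degrades glutathione, contrary to the list's name (3.71, from 1.58 to 31.8). SLC7A11, the cystine carrier of system xc-, was at 9.77 in BPH-1 and 0.988 in PC3 (log2 fold change -2.35, standard error 0.31, limma adjusted p = 0.000128), and SLC3A2, its heavy chain, was lower in PC3 than in BPH-1 (-1.17) and than in DU145 (-2.33). GLRX, a glutaredoxin, was higher than in BPH-1 both in PC3 (1.32) and in DU145 (0.75).

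Of 12 genes of the thioredoxin and peroxiredoxin system, 4 were higher and 5 lower in PC3 against BPH-1, 4 higher and 3 lower in DU145 against BPH-1, and 3 higher and 4 lower in PC3 against DU145, with list medians of -0.13, -0.21 and -0.12. The largest differences of PC3 from BPH-1 were in the peroxiredoxin genes PRDX6 (269 against 61.9, log2 fold change 2.097), PRDX2 (1.62) and PRDX5 (1.49). PRDX5 was also higher in DU145 than in BPH-1 (1.63), with means of 257 in PC3, 294 in DU145 and 90.5 in BPH-1, and PRDX3, named after its values were seen, was lower in PC3 than in BPH-1 (-0.47, limma adjusted p = 0.0302). DU145 had more TXNRD2, the mitochondrial thioredoxin reductase (3.31, from 1.02 to 19.4), and SESN2 (2.43). TXNIP, an inhibitor of thioredoxin, was at 1.99 in DU145 against 37.1 in BPH-1 and 13.7 in PC3, and reached the read minimum in 3 of the 4 DU145 libraries.

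Of 12 genes of quinone, carbonyl and xenobiotic metabolism, 10 were higher and 1 lower in DU145 against BPH-1 (30.3% and 32.3% of all genes), with a median of 1.72 in the list and -0.03 over all genes. In PC3 against DU145, 8 were lower and 1 higher (28.3% and 20.0% of all genes), with medians of -0.80 and -0.05. In PC3 against BPH-1, 6 were higher and 2 lower (27.2% and 40.5% of all genes), with medians of 0.69 and -0.13. Some of these calls are of genes that reached the read minimum in all 4 libraries only in the line where they are high. In DU145 against BPH-1 they are AKR1B10 (higher) and ALDH3A1 (lower). In PC3 against DU145 they are AKR1B1, AKR1B10 and ABCC2 (lower) and ALDH3A1 (higher), and in PC3 against BPH-1 AKR1B1 and ABCC2 (lower). ABCC3, an export pump for conjugates, was at 0.536 in BPH-1, 13.6 in DU145 and 8.27 in PC3 (log2 fold change 3.25 and 2.60 from BPH-1), and EPHX1, an epoxide hydrolase, at 8.17, 64.4 and 53.1 (2.81 and 2.58). OSGIN1 was at 1.61, 18.6 and 3.15, the order of HMOX1. AKR1B1, an aldose reductase, was at 8.26 in BPH-1, 27.9 in DU145 and 0.0969 in PC3, where it did not reach the read minimum in every library, and PTGR1 was lower in PC3 than in DU145 (-2.17).

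Of 7 genes of haem and iron handling, 4 were higher and 1 lower in each PCa line against BPH-1, and 1 was higher and 4 lower in PC3 against DU145. The list medians were 0.77 in PC3 and 0.84 in DU145 against BPH-1 and -0.70 in PC3 against DU145. In DU145 the higher genes include BLVRB, a biliverdin reductase (2.38), SLC48A1, a haem carrier (2.03), and FECH, which inserts the iron in the last step of haem synthesis (1.47). In PC3, FTH1, the ferritin heavy chain, was at 583 against 226 in BPH-1 (1.33), HMOX2 was lower (-1.30), and BLVRB was higher (1.16), a call lost with the GC trend divided out (0.55, adjusted p = 0.0602). PC3 lay below DU145 for SLC48A1 (-2.21) and BLVRB (-1.22) and above it for FTH1 (1.22). With DU145 replicates 1 and 2 left out, BLVRB and FTH1 were at -1.33 and 1.18, near the values with all libraries, and did not pass in limma (adjusted p = 0.0578 and 0.0543). With replicates 3 and 4 left out BLVRB was at -1.12 and also did not pass (adjusted p = 0.0824).

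The list of NADPH-producing enzymes held 6 genes, of which TALDO1 and TKT make no NADPH themselves, contrary to the list's name. Of the 6, 3 were higher and 1 lower in PC3 against BPH-1, and 2 were higher and 0 lower in DU145 against BPH-1. In PC3 against DU145, 1 was higher and 2 lower. The list medians were 0.18, 0.32 and -0.25 in that order. PGD, of the pentose phosphate pathway, was 0.84 (log2) higher in PC3 than in BPH-1, and IDH1 was 5.27 in PC3 against 8.69 in BPH-1 (-0.61). In DU145, PGD (1.06) and TALDO1 (0.91) were higher than in BPH-1. None of these 4 differences passed in limma with the GC trend divided out, at 0.39, -0.23, 0.39 and 0.13. In PC3 against DU145, TALDO1 (-0.96) and IDH1 (-0.80) were lower, and IDH1 did not pass with DU145 replicates 1 and 2 left out (limma adjusted p = 0.189). IDH1 also did not pass without DU145 replicate 1, 2 or 4 or without PC3 replicate 1, 2 or 3 (adjusted p between 0.0607 and 0.0771).

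Of 17 other glutathione S-transferase genes in the table, 13 or 14 were tested. In PC3 against BPH-1, 8 were higher and 5 lower, in DU145 against BPH-1, 6 higher and 4 lower, and in PC3 against DU145, 4 higher and 3 lower, with list medians of 0.44, 0.19 and 0.19. GSTM1 is among the lower genes in both comparisons with BPH-1, and reached the read minimum in all 4 libraries of BPH-1 only. GSTM3 was at 0.158 in BPH-1, 6.54 in DU145 and 8.57 in PC3 (log2 fold change 2.70 and 3.04), the opposite direction to GSTP1. GSTA4 was higher than in BPH-1 both in PC3 (1.21) and in DU145 (0.76). GSTT2B and GSTT2 were lower in DU145 than in BPH-1 (-1.48 and -1.43) and in PC3 than in BPH-1 (-1.29 and -1.11), but they are near-identical copies and their split is uncertain. The split is also uncertain for GSTM2, which was at 0.118 in BPH-1, 0.0277 in DU145 and 1.11 in PC3 and reached the read minimum in all 4 libraries of PC3 only. GSTO1 (-1.22) and GSTO2 (-0.85) were lower in PC3 than in DU145. Among 8 other antioxidant enzymes, 2 were higher and 2 lower in PC3 against BPH-1 and in PC3 against DU145, and of 7 tested in DU145 against BPH-1, 3 were higher and 2 lower. The list medians were -0.27 and 0.32 for PC3 and DU145 against BPH-1 and 0.26 for PC3 against DU145. SOD1 was higher than in BPH-1 both in PC3 (1.03) and in DU145 (0.99). SOD3 was at 0.192 in BPH-1, 0.0342 in DU145 and 3.71 in PC3, where alone all 4 libraries reached the read minimum, and GPX3 was at 0.866, 5.06 and 0.0162, with no PC3 library at that minimum. In DU145 against BPH-1, GPX3 was higher (1.63), and the calls of GPX4 (1.17) and SOD2 (-1.31) were lost with the GC trend divided out (limma adjusted p = 0.0951 and 0.187). GPX4 was also lower in PC3 than in DU145 (-1.36).

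**Figure D5:**
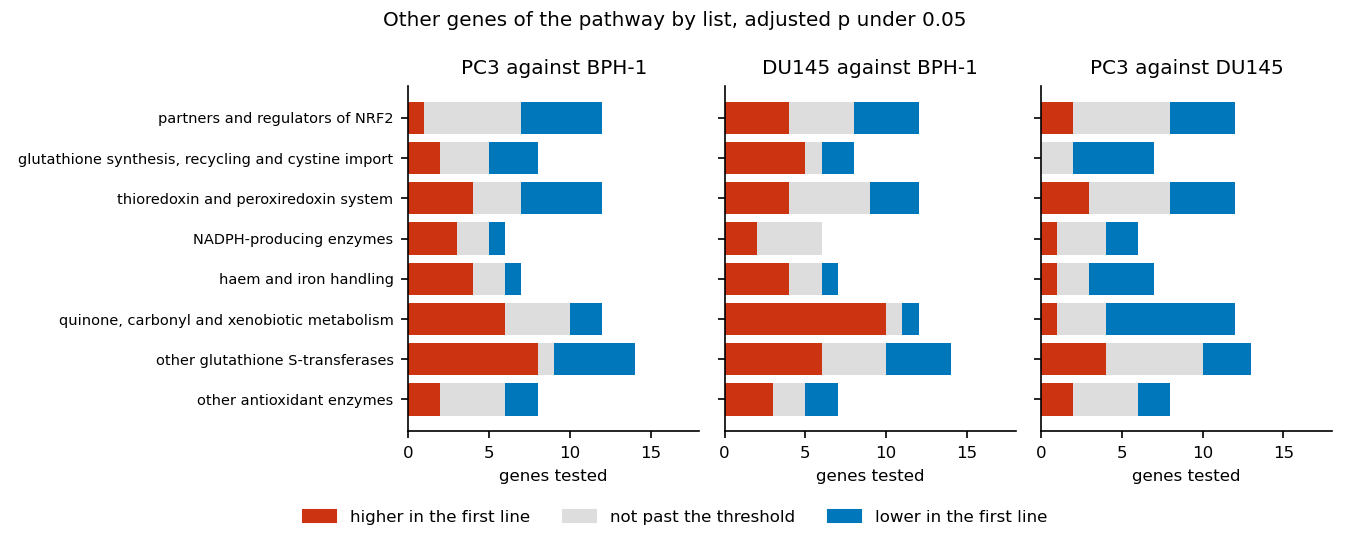
Number of genes of each of the 8 lists (horizontal axes, genes tested) that were higher (red), lower (blue) or did not pass (grey) in the first line of each comparison, at an adjusted p under 0.05 in limma. In the quinone, carbonyl and xenobiotic list 10 of 12 genes were higher in DU145 than in BPH-1 and 8 of 12 were lower in PC3 than in DU145, where 30.3% and 28.3% of all genes tested were. Among these, AKR1B10 in both comparisons, and AKR1B1 and ABCC2 in PC3 against DU145, entered the test through DU145. There alone, of the lines compared, did all 4 libraries reach the read minimum.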

How the data were processed

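Total RNA of BPH-1, DU145 and PC3 (4 libraries each) was extracted with TRIzol and sequenced from NEBNext Ultra libraries. The authors deposited 1 table of normalized values with GRCh38 coordinates, and the header names no unit. The values have the form of FPKM (per the steps between low values of the deposited table, of which 93.0% to 94.1% in a library were whole reads within 0.05 of a read). Gene length was the sum of distinct exons in GENCODE 29, where 56610 of 58302 genes were at the same locus, and 263 genes without a length were not tested. For GSTP1 and GCLC the length was taken from the steps. The submitters' processing notes name CASAVA 1.8, HISAT2 2.1.0 and edgeR. Their roles, the counting program and the use of strand are not given in the sources used here.

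A count model was planned for counts. The table turned out to hold FPKM, so log2(FPKM + 1) was tested in limma (version 3.58.1, run under R 4.3.3) with its trend option, and a fit used only the libraries of its 2 lines. A gene was tested if at least 4 libraries held the equivalent of 10 reads in a library of median depth, and all libraries together 15 reads. Exact permutation tests of each member were two-sided. The fits, the recovery of depth and the GC correction were tested on simulated data. For the GC correction, deviations of log2 FPKM were regressed on GC content in each library (natural spline, 5 degrees of freedom, genes averaging at least 50 reads) and the fitted curve was removed, which also removes real differences that follow GC content. Depth limits cover counting error only.

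The 9 members and the lists were chosen with earlier results of these data known. From each other list, the 3 genes with the largest absolute log2 fold change among those that passed were named per comparison, and for each member the 2 genes with the nearest profile. GSTT1 was not used here. Some results of the NADPH-producing list are not reported here. Alternatives were log2(FPKM + 0.1), no filter, a filter in every library, a block for the replicate number, all 3 lines in 1 fit, leaving out each library, scaling to the same sum, median of ratios, upper quartile, the GC correction, voom on the recovered reads, and an absolute log2 fold change over 1. Leaving out DU145 replicates 1 and 2, or 3 and 4, was chosen after seeing the data. No library was a duplicate, as the 18 pairs within lines gave a chi-square per gene of 16.2 to 212. Values were read with pandas 2.3.3 and numpy 2.4.6 and plotted with matplotlib 3.10.9 (Python 3.11.15).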

Additional observations from a re-analysis of the deposited data

Results flagged for a closer look

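PC3 replicate 4 lay far from the other 3 PC3 libraries in 3 of the 9 genes, NQO1 (FPKM 30.48, with the others between 14.4 and 16.9), SRXN1 (58.38, others between 37.7 and 40.6) and HMOX1 (5.563, others between 1.501 and 2.04). It is also the PC3 library with the highest GC trend (1.55), and with that trend divided out its values were 29.8, 43.6 and 3.81. The summed FPKM of DU145 replicate 4 (302500) lay above those of the other DU145 libraries, between 289756 and 291753. A library was listed where its gap to the nearest other library of its line, over the range of the line, exceeded Dixon's 95% critical value for 4 values, and 4 of 33 groups examined did so, where chance gives about 5%.

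The effect against BPH-1 differed between PC3 and DU145 in 6 genes, by the test of PC3 against DU145 in limma. BPH-1 cancels in this difference, so these are the same 6 calls of PC3 against DU145 as given above. In that comparison 48.2% of all genes tested passed. The effect in PC3 minus that in DU145 (log2) was 0.87 for KEAP1, -2.90 for NQO1, -0.92 for GCLC, -1.26 for GCLM, -2.31 for SRXN1 and -2.48 for HMOX1.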

How the results depend on the processing

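Of 522 values of the 9 genes' log2 fold changes under alternatives, 483 kept direction and side of the threshold, 12 kept the direction and lost the call, 12 gained it and 15 changed sign, and 13 of 27 results changed under no alternative. Values that changed sign were those of NQO1 in PC3 against BPH-1 (-0.28 to 0.32 leaving out each library, -0.20 with the same sum, -0.0045 by median of ratios, -0.034 with the GC trend divided out), HMOX1 in PC3 against BPH-1 (-0.020 to 0.49 leaving out each library, -0.16 with the GC trend divided out), SRXN1 in PC3 against BPH-1 (-0.078 with the GC trend divided out), KEAP1 in DU145 against BPH-1 (-0.20 to 0.11 leaving out each library, 0.19 by upper quartile, 0.14 with DU145 replicates 3 and 4 left out) and GCLM in DU145 against BPH-1 (1.01 with the GC trend divided out). The causes were not tested.

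With the GC trend divided out, 8 members passed in DU145 against BPH-1, in place of 5. Of all 17070 genes tested there, 10717 then passed, in place of 10689. In PC3 against BPH-1, 3 exact permutation tests of members passed, in place of 5. With an absolute log2 fold change over 1 as well, 3 members, 29 list genes and 4424 genes in all passed in PC3 against BPH-1, 4895 genes in DU145 against BPH-1, and 28 list genes and 3165 genes in PC3 against DU145, where the stricter filter gave 5210. Scaling moved the median of all genes in PC3 against BPH-1 from -0.13 to -0.28 (same sum) and 0.10 (upper quartile), with 40.2%, 30.3% and 55.3% of calls higher, and in DU145 against BPH-1 from -0.03 to -0.16 and 0.13, with 48.4%, 38.6% and 57.3% higher. Of the 71 differences of list genes, which were picked as the largest, 0 changed sign under a scaling. Direction and call were kept in every alternative fit by 19 of 23 in DU145 against BPH-1. The same held for 20 of 24 in PC3 against BPH-1 and for 20 of 24 in PC3 against DU145.

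The correlation of same-numbered deviations between lines ranged from -0.65 to 0.51 and exceeded 0.1 in 2 of 12 pairs. Differently numbered pairs were not examined for reference, so whether equal replicate numbers pair the libraries cannot be told from these values. With the replicate block, 5, 5 and 6 members and 10710, 10152 and 6654 genes passed in PC3 and in DU145 against BPH-1 and in PC3 against DU145. Depth did not limit the 9 genes, which had at least 52 reads in each library.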
